A study of Mus musculus with 12 samples.

Results

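Most genes with an N6-methyladenosine (m6A) peak of their own in these livers have only a few, and a small group has many. The regions described here are the 2216 peaks of the 106 genes with 15 or more peaks, out of 37118 peaks and 10084 genes in the table. Members were chosen by counting, for each gene symbol, the peaks whose annotation is that single symbol, and taking every peak of the symbols with at least 15. These genes make up 1.05% of the genes and 5.97% of the peaks, and 104 of them are protein coding and 2 are long noncoding RNAs. The count per gene leaves out 4582 peaks with more than 1 symbol and 1555 with none. Of the peaks with more than 1 symbol 95 name a gene of the set. All 2216 peaks passed the filter on low counts. The rule used the number of peaks and not the cadmium comparison. Peak number can rise with the length and the level of a gene, so both are given below as a description.

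The samples are livers of wild-type male C57BL/6 mice gavaged every day with a cadmium chloride (CdCl2) solution in deionized water, at 0 mg/kg/day (control, 3 samples) or 20 mg/kg/day (cadmium, 3 samples), and taken at day 90. Animals were 6 to 8 weeks old per the growth protocol. Fragments of total RNA were pulled down with an anti-m6A antibody (MeRIP-seq), and the 6 pulled-down libraries are compared; the 6 input libraries were not used here. A difference in the counts of a peak can therefore come from the amount of the RNA, from its methylated share or from both. In bulk liver, fewer cells of a type and less RNA per cell also cannot be told apart. The table names its columns by library number only, and they were read as the pulled-down libraries of those numbers. The labels give 6 mice to a group and number the replicates without saying that each is a separate mouse, so p-values measure the spread between these samples.

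The m6A mark is placed on adenosines of nascent RNA by the METTL3 and METTL14 methyltransferase complex, often within a short motif around a GGAC core, and it is read by proteins that act on splicing, export, translation and decay. In many messenger RNAs the mark is dense in long internal exons and near the stop codon. Long genes with several promoters can give transcripts that share only part of their exons, and a change in one of these transcripts then shows in only a part of the gene's peaks.

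Counts in peaks totalled 40174736 to 52338612 per sample, and the member peaks took 3.52% to 4.54% of them. The 2 largest peaks of the table, which belong to no gene of the set, took 4.95% to 19.7%. Levels are in CPM, counts scaled by the effective total count of the sample, on 2 scales. Levels of single peaks, of parts of a gene and of markers are scaled to all peaks of the table. Sums over a whole gene come from the fit of gene sums and are scaled to the peaks with a single symbol, so they are 1.16 to 1.22 times the sum of the gene's peak levels, depending on the sample. Summed levels of the stellate and fibroblast markers were 70.8 to 84.1 CPM in control and 106 to 136 in cadmium samples, with 6 of 7 markers holding a peak and Lrat none. The cholangiocyte markers, 4 of 6 with a peak and Krt19 and Krt7 without, were at 63.5 to 82.5 CPM in control samples and at 230, 71.7 and 191 in cadmium replicates 1, 2 and 3. Lymphocyte markers (2 of 6 with a peak) were at 2.24 to 2.95 CPM in control and 3.24 to 4.76 in cadmium samples. Hepatocyte markers (7 of 7) held 27231 to 33060 CPM, and the groups overlapped; macrophage, endothelial and erythroid markers overlapped too, and the 4 neutrophil markers had no peak. The part that such shifts play in the gene results below was not tested.

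Sequence around a gene's start is shown for 4 genes, because all of their peaks were called (Fmo5, Por), that is, differed between cadmium and control at an edgeR adjusted p below 0.05, or because their called peaks lie only after the second of 2 annotated starts (Upp2, Camk1d). Each line runs 5′ to 3′ in the direction of the gene and comes from RefSeq (GRCm38.p6, the assembly of mm10). Lower case letters are the 250 bases before the annotated start and capitals are the 30 bases that begin at it.
Fmo5, chr3:97628769-97629048, plus strand: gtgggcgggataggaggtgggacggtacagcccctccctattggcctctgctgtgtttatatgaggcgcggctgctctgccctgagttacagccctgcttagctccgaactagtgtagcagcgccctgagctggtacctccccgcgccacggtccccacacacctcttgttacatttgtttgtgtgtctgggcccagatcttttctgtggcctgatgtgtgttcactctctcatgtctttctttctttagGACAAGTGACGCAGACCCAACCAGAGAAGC
Por, chr5:135688895-135689174, plus strand: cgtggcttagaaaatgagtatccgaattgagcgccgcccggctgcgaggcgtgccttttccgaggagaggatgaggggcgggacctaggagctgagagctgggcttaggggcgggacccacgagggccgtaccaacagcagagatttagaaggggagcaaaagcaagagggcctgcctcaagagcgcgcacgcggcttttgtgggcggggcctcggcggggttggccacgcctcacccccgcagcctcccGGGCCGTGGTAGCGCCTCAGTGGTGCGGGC
Upp2 first start, chr2:58567084-58567363, plus strand: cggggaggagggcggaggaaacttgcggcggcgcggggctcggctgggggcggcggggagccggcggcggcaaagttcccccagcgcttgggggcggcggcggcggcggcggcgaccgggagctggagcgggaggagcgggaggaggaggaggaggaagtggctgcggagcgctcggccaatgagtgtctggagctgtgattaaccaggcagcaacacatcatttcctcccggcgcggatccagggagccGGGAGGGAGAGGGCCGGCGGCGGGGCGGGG
Upp2 second start, chr2:58754934-58755213, plus strand: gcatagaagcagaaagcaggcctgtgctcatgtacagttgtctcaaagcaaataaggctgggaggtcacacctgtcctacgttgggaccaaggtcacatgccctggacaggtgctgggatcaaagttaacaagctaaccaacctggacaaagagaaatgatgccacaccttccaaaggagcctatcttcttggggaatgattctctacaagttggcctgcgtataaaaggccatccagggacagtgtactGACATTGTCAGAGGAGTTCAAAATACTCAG
Camk1d first start, chr2:5714733-5715012, minus strand: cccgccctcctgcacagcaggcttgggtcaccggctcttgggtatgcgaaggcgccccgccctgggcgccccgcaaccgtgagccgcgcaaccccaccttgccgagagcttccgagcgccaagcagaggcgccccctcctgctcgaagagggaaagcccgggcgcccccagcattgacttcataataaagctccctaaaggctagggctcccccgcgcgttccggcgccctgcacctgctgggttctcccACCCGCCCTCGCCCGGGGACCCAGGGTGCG
Camk1d second start, chr2:5676017-5676296, minus strand: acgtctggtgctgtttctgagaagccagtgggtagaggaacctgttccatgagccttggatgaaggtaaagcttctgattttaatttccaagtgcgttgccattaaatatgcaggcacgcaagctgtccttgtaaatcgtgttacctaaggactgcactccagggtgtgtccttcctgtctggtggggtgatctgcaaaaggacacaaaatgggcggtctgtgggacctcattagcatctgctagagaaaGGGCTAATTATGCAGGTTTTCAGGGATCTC

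The first peak of Fmo5, at chr3:97628883-97629050 as deposited, lies over this start. It shares 168 bases with the 300-base RefSeq window from 250 bases before to 50 bases after the start. Of these 168 bases, 136 lie before the annotated start. Of the 23 peaks in the set that overlap such a window of their own gene 1 was called, this one, beside 6.27% of all tested peaks. No peak overlaps the windows of Por, Upp2 or Camk1d. The first peak of Por, at chr5:135674615-135674748, lies before its printed start and the other 14 after it. Upp2 peak 2 and Camk1d peak 2 are the next peaks after the second starts, with midpoints 174 and 132 bases downstream. The 2 starts of Upp2 differ in composition: G and C made up 75.3% of the 300-base window at the first and 47.0% at the second. For Camk1d the values were 71.3% and 48.7%. Short motifs were searched on both strands of the 300-base windows. TATAAA, the TATA box letters, begins 29 bases before the second start of Upp2 on the gene's strand, and on the other strand of the Fmo5 window 195 bases before the start; 13.6% of all 32851 windows hold it. CCAAT was found in the windows of Fmo5, the first start of Upp2 and the second of Camk1d, beside 37.4% of all windows. GGACT, 1 form of the m6A motif, was found 101 bases before the second start of Camk1d and in none of the other 5 windows, beside 45.5% of all windows.

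The 106 genes were long and their RNA was well covered. Median gene length was 124 kb, beside 48.7 kb for genes with 5 to 14 peaks, 21.9 kb for those with 2 to 4 and 16.9 kb for those with 1. Median control level per kb of peak was 40.3 CPM, beside 34.8, 26.4 and 19.6 CPM in the same order. Peaks were no wider than elsewhere, with a median of 221 bp beside 224 to 239 bp. Within the set the number of peaks ran from 15 to 116 with a median of 17.5. Dpyd, which encodes dihydropyrimidine dehydrogenase of pyrimidine breakdown, held 116. It was followed by Gphn (gephyrin, a scaffold and molybdenum cofactor enzyme) with 53, Ghr (growth hormone receptor) with 49 and Adk (adenosine kinase) with 48. Macf1, Syne2 and Dst, giant proteins that link the cytoskeleton to other structures, held 43, 40 and 35 peaks. Zbtb20, a transcriptional repressor of hepatocytes, held 33. Just outside the rule stood 27 genes with 14 peaks, of which Sox6 (569.9 kb) and Alcam (204 kb) were the longest, and just inside it 25 genes with 15. Peaks were called at 17 of 378 (4.50%) in the former and at 73 of 375 (19.5%) in the latter, beside the 6.27% of all tested peaks. The 73 lay in 8 of the 25 genes: Fmo5 and Por (15 each), Gm34667 (14), Baz1b (10), Upp2 (9), Arid5b (8), Rock2 and Tmf1 (1 each).

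In Crp the annotation reaches far past the gene. Crp encodes C-reactive protein, an acute-phase protein of hepatocytes, and spans 1.911 kb. Only 3 of its 27 peaks lie in that span, at 40.1 to 647 CPM in control samples, and the other 24 lie downstream at 1.32 to 5.80 CPM. Without them Crp would not be in the set. In 102 of the 106 genes every peak lies within the RefSeq span.

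The peaks with the highest level per kb lay in the outer parts of the span from first to last peak more often than in its middle part. Strand was known for 89 genes, and the other 17 were read along the chromosome. Among the 89, the span from first to last peak was divided into 3 parts of equal length. The densest peak lay in the first part in 29 genes, in the middle part in 15 and in the last part in 45. It was the first peak itself in 10 genes and the last peak in 4. These parts held 571, 534 and 804 peaks, so the 3 counts rest on unlike numbers of peaks. Only 82 of the 89 genes had a peak in the middle part. Median control levels per kb in these parts were 38.2, 36.6 and 45.9 CPM. For first peaks alone the median was 44.1 CPM and for last peaks 35.9 CPM, beside 40.3 CPM for the peaks between. Over single genes the profile could be steep in either direction. Among the same 89 genes, control level per kb fell most from first to last peak in Crp (by 5.09 on the fitted log2 scale), Larp1b (by 4.30; an RNA-binding La-related protein) and Pard3 (by 2.46; a cell polarity scaffold). Among them it rose most in Dst (4.95), Upp2 (4.37) and 2900026A02Rik (2.45). The fall of Crp is between 3 peaks within the gene and 24 downstream of it, and is not a profile along the gene itself. In Larp1b the first peak was at 104, 104 and 131 CPM in control samples and the last at 1.08, 1.22 and 1.50 CPM.

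In some genes neighbouring peaks held nearly the same counts, also where their widths differed and they lay far apart. In Dpyd, peaks 11 to 18 lie over 54.5 kb and are 111 to 266 bp wide, yet their levels were 68.2 to 70.9 CPM in control replicate 1, 53.2 to 56.8 in control 2 and 56.5 to 59.9 in control 3. Cadmium samples showed the same 8-peak plateau, at 67.1 to 69.7, 52.1 to 53.8 and 57.1 to 58.5 CPM. Levels along Dpyd moved in steps: 91.2 to 114 CPM (control means) in peaks 1 to 6, 28.8 to 32.0 in peaks 7 to 10, 59.3 to 64.2 in peaks 11 to 21, 5.59 to 15.8 in peaks 22 to 112 and 21.8 to 44.4 in the last 4. In Por, which encodes the electron donor of liver cytochrome P450 enzymes, peaks 2 to 5 lie over 21.5 kb and differed by at most 3.42% within any sample. A pair of neighbours was counted as near-equal when their counts differed by less than 10% in each of the 6 samples and each held at least 200 counts. Such pairs made up 126 of 1260 pairs deep enough in the set (10%), 206 of 5486 (3.76%) in genes with 5 to 14 peaks and 64 of 3493 (1.83%) in genes with 2 to 4. Of the 126 pairs, 78 lay more than 1 kb apart, and 57 were in Dpyd (22), Adk (19) and Ghr (16). They formed 78 runs with 204 peaks, 9.21% of the members. Whether the peaks of such a run are separate measurements, or single reads were counted in several of them, was not tested.

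**Figure D1:**
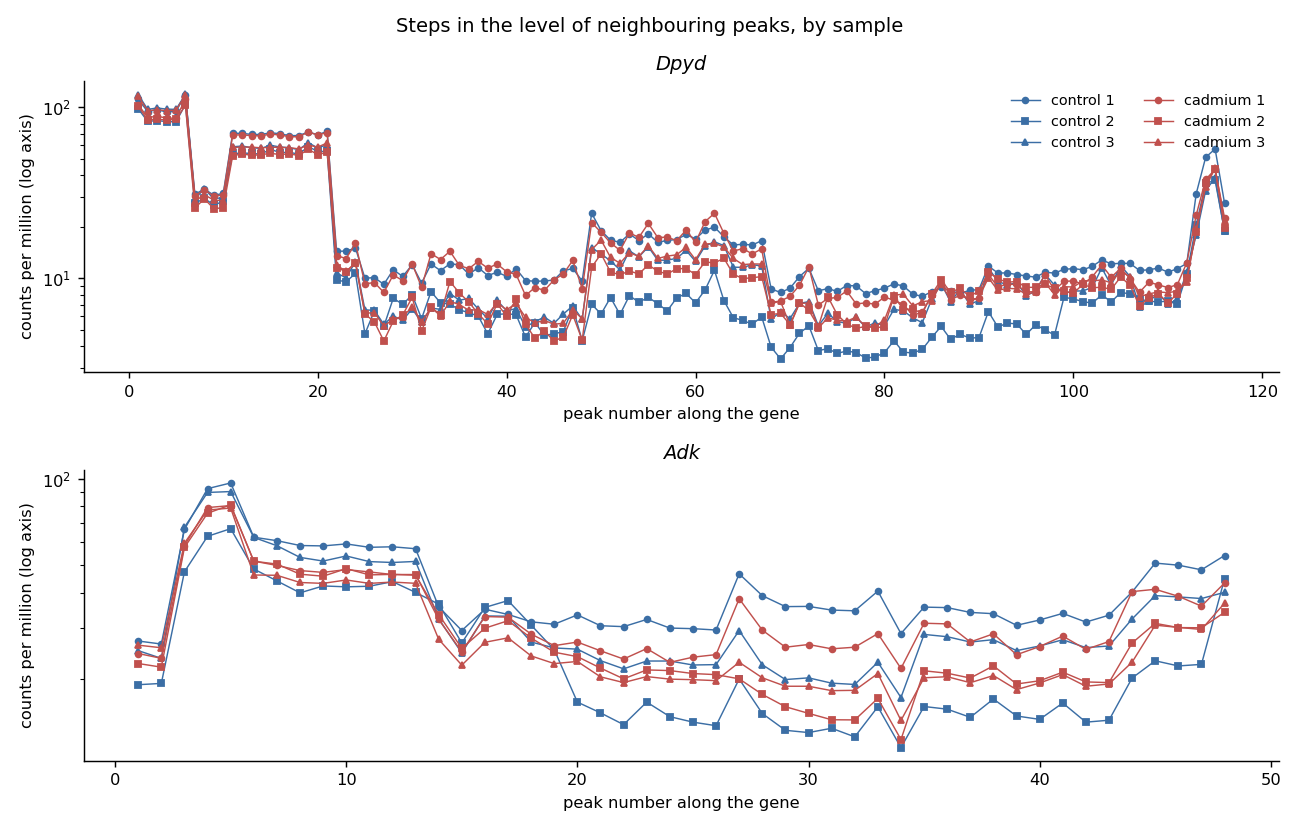
Level of each peak (CPM, log axis) by its number along Dpyd (116 peaks) and Adk (48 peaks), 1 line for each of 3 control and 3 cadmium samples. Levels stay flat over runs of neighbouring peaks and then step, as in Dpyd peaks 11 to 21 at 59.3 to 64.2 CPM in the control means.

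Cadmium and control livers differed at 173 of the 2216 member peaks (7.81%), beside 6.27% of all 37088 tested peaks (edgeR, adjusted p below 0.05 over the whole table). Higher in cadmium were 78, beside a background of 3.55%, and lower were 95, beside 2.72%. Calls were bundled by gene. They fell in 24 of the 106 genes, 82 had none, and no gene had calls in both directions. Together, the 13 genes with 8 or more called peaks held 142 of the 173 calls. Calls covered 7.18% of peaks in the first part, 4.49% in the middle part and 11.3% in the last part of the 89 genes with strand. With calls bundled in few genes, these shares follow where the peaks of those genes lie, and a role of position was not tested. Changes in single peaks lay between a fall of 1.82 in Fmo5 and a rise of 1.65 in Syne1 on the log2 scale. Of all member peaks 62.1% were below 0, beside 50.5% of all peaks, and the median was -0.08. Left-out libraries gave 65 to 134 called member peaks, with 65 without cadmium replicate 3 and 109 without cadmium replicate 1 or control replicate 3. At an adjusted p below 0.05 the authors' deposited table held 256 member peaks. A DESeq2 fit of the same counts gave 256 as well, beside 9.92% of all peaks. Over the whole table both held 3683 peaks, so this fit is not a separate check.

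Summed over its peaks, a gene gives 1 value per sample. By these sums 19 of 106 genes passed (17.9%), 8 higher and 11 lower in cadmium, beside 10.3% of all 10073 genes (5.89% higher and 4.37% lower). Genes with 5 to 14 peaks passed at 10.97%, those with 2 to 4 at 12.03% and those with 1 at 7.25%. Their median summed levels were 94.6, 27.5 and 6.23 CPM, beside 281 CPM in the set. At the edge of the rule, 6 of 25 genes with 15 peaks passed and 2 of 27 with 14. Whether the higher share in the set follows from its higher summed levels was not tested. Control and cadmium samples did not overlap in 42 of the 106 genes, the 19 among them, beside 32.1% of all tested genes. Of the 106 changes 75 were below 0 (70.8%, beside 50.2% of all genes), and the median was -0.13. None of the 8 genes with the most peaks passed. Without cadmium replicate 3, 8 genes passed (3 higher, 5 lower). DESeq2 passed 29, beside 15.6% of all genes. Below, a gene whose call does not depend on any single library is one that passed in all 6 fits with 1 library left out.

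**Figure D2:**
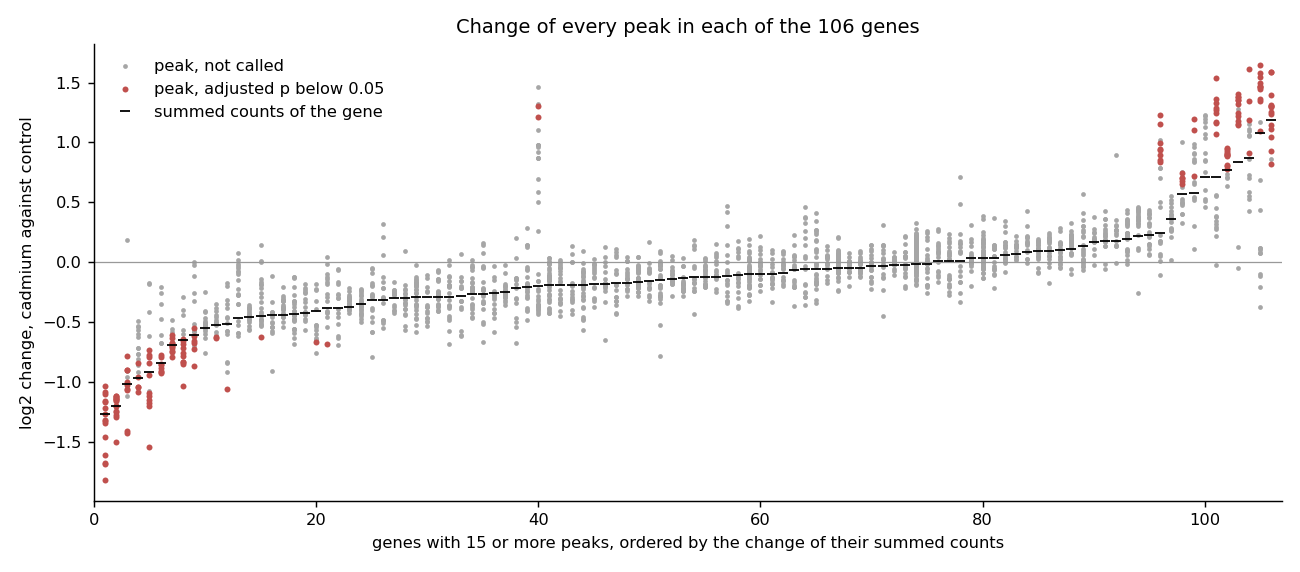
Log2 change of every member peak (cadmium against control), with the 106 genes ordered along the x axis by the change of their summed counts (black dashes). Red points are the 173 called peaks, which gather in the genes at both ends; grey points are the other peaks.

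The largest falls by sum were those of Fmo5, Por and Upp2. Fmo5 encodes a flavin-containing monooxygenase of the hepatocyte endoplasmic reticulum. Its summed level was 1449.8, 1782 and 1670.0 CPM in control and 802, 562 and 673 CPM in cadmium samples. Every cadmium sample lay below every control sample, with a log2 change of -1.27 (SE 0.16, adjusted p = 0.0029). All 15 of its peaks were called lower, from -1.04 to -1.82, and 13 to 15 were with any 1 library left out. Its densest peak, peak 5, stood at 83.1, 87.6 and 94.1 CPM in control and 44.2, 37.5 and 43.5 CPM in cadmium samples. The peak over the printed start was at 38.3, 48.0 and 48.6 CPM in control and 22.6, 14.5 and 17.3 CPM in cadmium samples. Por was at 2087, 1628 and 1999 CPM in control and 759, 839 and 882 CPM in cadmium samples, a log2 change of -1.20 (SE 0.14, adjusted p = 0.0021). Its 15 peaks, all called, lay between -1.11 and -1.50, and the largest fall was at the first peak, before the printed start. Neither call depended on any single library. The metabolic enzyme list held only Dpyd and Por, of which Por passed. Of the other genes of drug and pyrimidine metabolism in the set, Cyp3a25 (log2 change -0.55, adjusted p = 0.078), Cyp2c38 (-0.29, 0.33) and Dpys (-0.14, 0.60) did not pass; these were picked after their values were seen.

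Upp2 encodes uridine phosphorylase 2, which splits uridine in liver. Its sums were 1603, 928 and 1294 CPM in control and 793, 505 and 588 CPM in cadmium samples, with a log2 change of -1.02 (SE 0.22, adjusted p = 0.022). The first of its 15 peaks, after the first annotated start, was low in all samples (3.29 to 5.21 CPM) with a log2 change of 0.19. The other 14, all beyond the second start, lay between -0.78 and -1.42, and 9 of them were called. Control samples were spread, and the sum lost its call without control replicate 1 or 3 or cadmium replicate 2 or 3 (adjusted p up to 0.095). Of its peaks 1 was called without cadmium replicate 3, 2 without control replicate 3 and 4 without control replicate 1 or cadmium replicate 2, and 14 were with the replicate block.

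Camk1d encodes a calcium/calmodulin-dependent protein kinase, and 1 of its peaks again lies before the second of 2 annotated starts. Sums were 242, 181 and 344 CPM in control and 532, 384 and 452 CPM in cadmium samples, with a log2 change of 0.84 (SE 0.22, adjusted p = 0.045). Peak 1, near the first start, was at 2.89 to 8.27 CPM over the 6 samples with a change of 0.13. Of the 15 peaks beyond the second start 11 were called, and the log2 changes of 14, called or not, lay between 1.14 and 1.40. The remaining one was peak 8, the densest peak of the gene, at 62.1, 81.0 and 92.5 CPM in control and 90.9, 64.3 and 72.7 CPM in cadmium samples (-0.05). The sum lost its call without control replicate 1 or 2 or cadmium replicate 1 or 3 (adjusted p up to 0.13). Called peaks numbered 0 without cadmium replicate 3, 2 without cadmium replicate 1, 5 without control replicate 1 and 7 without control replicate 2. In neither Upp2 nor Camk1d did peak 1 pass the diffSpliceDGE test against the other peaks of its gene. Their slopes along the gene did not pass either (limma adjusted p = 0.55 for Upp2 and 0.99 for Camk1d).

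**Figure D3:**
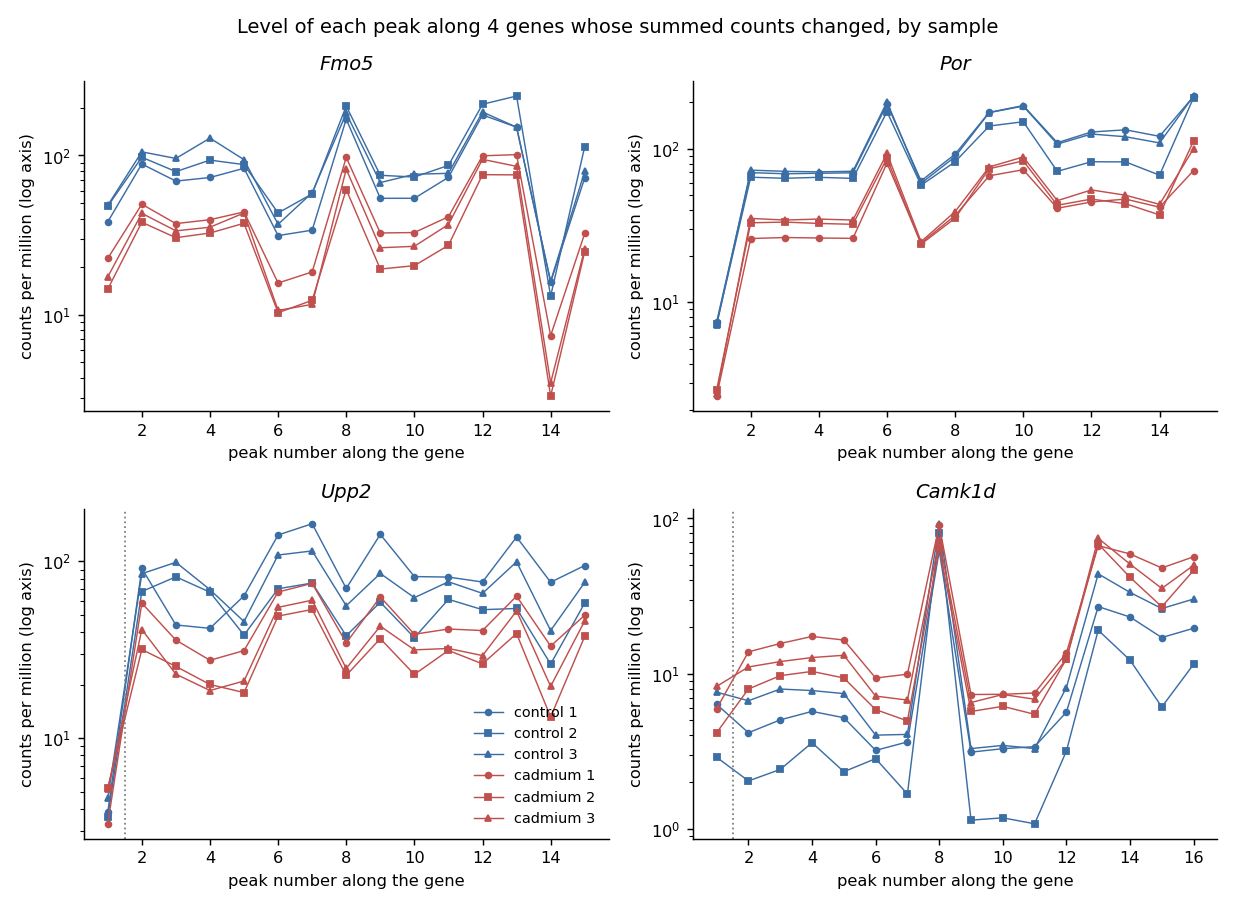
Level of each peak (CPM, log axis) by its number along Fmo5, Por, Upp2 and Camk1d, 1 line for each of 3 control and 3 cadmium samples. Dotted lines mark the second annotated start of Upp2 and Camk1d. Cadmium lies below control at all 15 peaks of Fmo5 and Por, and the 2 groups overlap at peaks 1, 9, 10, 13 and 14 of Upp2 and at peaks 1 and 8 of Camk1d.

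In the cytoskeleton list, with 18 members, 2 genes rose (Syne1 and Nav2) and none fell. The list's median was -0.07, beside -0.13 over the set and -0.002 over all genes. In the set as a whole 8 of 106 genes rose and 11 fell. Syne1 encodes nesprin-1, a giant protein that ties the nuclear envelope to actin. Its sums were 72.0, 70.9 and 68.2 CPM in control and 169, 121 and 155 CPM in cadmium samples, with a log2 change of 1.08 (SE 0.14, adjusted p = 0.0034). All called peaks lay in the 3′ part of its 23 peaks. On the scale of single peaks the first 12 summed to 20.9, 22.2 and 17.9 CPM in control and 23.9, 20.4 and 21.6 CPM in cadmium samples, and none was called (changes of -0.37 to 1.17). The last 11 summed to 37.9, 38.3 and 39.5 CPM in control and 117, 83.6 and 111 CPM in cadmium samples, and all 11 were called, with a median change of 1.46 and the largest at 1.65. In control livers the first 12 peaks thus held 0.454 to 0.580 of the level of the last 11, and in cadmium livers 0.194 to 0.244. The slope of level along the gene was 1.50, 1.61 and 1.83 log2 units from first to last peak in control and 3.60, 2.91 and 3.55 in cadmium samples. It differed by 1.71 (SE 0.21, limma adjusted p = 0.0068), and neither this nor the summed rise depended on any single library. The 3 annotated starts of Syne1 lie before peaks 1, 3 and 19.

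Nav2, which encodes a neuron navigator protein that binds microtubules, changed at the other end. Sums were 145, 207 and 236 CPM in control and 356, 331 and 278 CPM in cadmium samples, a log2 change of 0.71 (SE 0.18, adjusted p = 0.039; 0.057 with the replicate block). On the scale of single peaks the first 9 summed to 49.9, 69.3 and 74.1 CPM in control and 168, 148 and 134 CPM in cadmium samples, and all 9 were called, at 1.07 to 1.54. The groups lay apart in each of the 9. The last 11 held 68.9, 107 and 125 CPM in control and 130, 136 and 104 CPM in cadmium samples, overlapped between the groups, and none was called. The slope along Nav2 was 0.69, 0.99 and 1.13 in control and -0.40, 0.09 and -0.25 in cadmium samples, a difference of -1.13 (SE 0.19, adjusted p = 0.043). With any 1 library left out, 8 or 9 of its peaks were called. The summed rise kept its call only without control replicate 3, and the slope kept its call only without control replicate 2 or cadmium replicate 2 (adjusted p up to 0.20).

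Slopes differed in 2 of the 106 genes (1.89%), Syne1 upward and Nav2 downward, beside 0.322% of the 1865 genes with 5 or more peaks (0.107% upward and 0.214% downward). Of the 1865 genes 1759 have 5 to 14 peaks, so their slopes rest on fewer peaks than those of the set. The share in the set rests on 2 genes only. Dst, with the next lowest p, missed the threshold. Dst encodes dystonin, which links intermediate filaments to adhesions and has short and long forms. Its summed level was 385, 341 and 403 CPM in control and 359, 299 and 323 CPM in cadmium samples (-0.20, adjusted p = 0.34). The first 18 peaks were all above 0 (0.26 to 1.47; 2 called, 0 or 1 with any library but cadmium replicate 2 left out and 7 without that one). On the scale of single peaks they summed to 22.5, 29.4 and 30.7 CPM in control and 67.8, 34.1 and 49.8 CPM in cadmium samples. Cadmium replicate 2 lay close to the control samples there. The last 17 peaks were all below 0 (-0.10 to -0.44; none called) and summed to 292, 261 and 309 CPM in control and 233, 222 and 227 CPM in cadmium samples. The slope difference of -1.64 had an adjusted p of 0.066, 0.020 without cadmium replicate 2 and 0.027 without control replicate 2. Dst peak 18, at chr1:34228704-34229175, was the only 1 of the 2216 whose change differed from that of its gene's remaining peaks (by 1.40, diffSpliceDGE adjusted p = 0.021), beside 0.0328% of the 27477 peaks tested (0.0255% upward and 0.00728% downward). That call was lost in 5 of the 6 fits with 1 library left out and with the replicate block (0.069) and with limma voom (0.48). The break points in these 3 genes were chosen after the values were seen. Both annotated starts of Nav2 lie before its peak 1, and the 2 of Dst lie before peaks 1 and 3. Whether annotated starts play a part in changes along a gene was not tested in any gene.

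**Figure D4:**
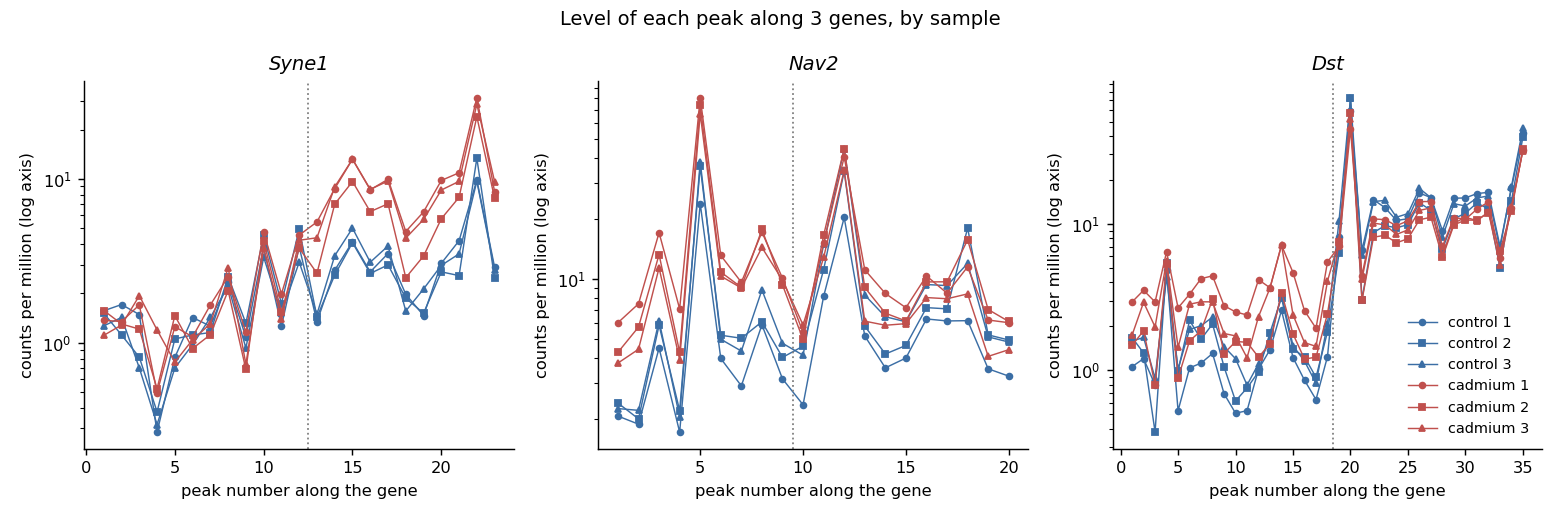
Level of each peak (CPM, log axis) by its number along Syne1, Nav2 and Dst, 1 line for each of 3 control and 3 cadmium samples; dotted lines mark the break points. Cadmium lies above control at the last 11 peaks of Syne1 and the first 9 of Nav2. For Dst the fitted changes are above 0 at the first 18 peaks and below 0 at the last 17, and samples of both groups mix at many peaks.

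Among the 14 members of the chromatin and transcription list, 2 fell (Chd9 and Arid5b) and 1 rose (Zfhx4). Of the 14, 11 were below 0, with a median of -0.18. In the set as a whole 17.9% of genes passed, 70.8% were below 0 and the median was -0.13, so the list lay near the set. Chd9 encodes a chromodomain helicase. Its sums were 1381, 1575 and 1654 CPM in control and 842, 625 and 898 CPM in cadmium samples, a log2 change of -0.96 (SE 0.16, adjusted p = 0.0084). All 18 peaks were below 0, and 5 were called (3 without cadmium replicate 3). The first peak alone, 2736 bp wide, held 793, 913 and 1015 CPM in control and 486, 349 and 562 CPM in cadmium samples on the scale of single peaks, 70.4% of the gene's control level. Arid5b, a DNA-binding partner of a histone demethylase, was at 431, 570 and 443 CPM in control and 227, 276 and 302 CPM in cadmium samples (-0.84, SE 0.16, adjusted p = 0.013). The 1 annotated start of Arid5b lies before its peak 1. Its first 3 peaks changed by -0.21 to -0.35 with no call, and 8 of the other 12 were called, down to -0.93. Without cadmium replicate 3 or 1 there were 2 and 3 calls. Neither sum depended on any single library. Zfhx4, a zinc finger homeobox gene, lay between 96.2 and 115 CPM in control and 147 and 180 CPM in cadmium samples (0.56, adjusted p = 0.027).

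Baz1b, Smarca2 and Smarca4, subunits of chromatin remodelling complexes, are in no list. Baz1b (-0.69, adjusted p = 0.0091, 10 of 15 peaks called) and Smarca2 (-0.53, 0.026, 2 of 17, 6 with the replicate block) fell by sum, and Smarca4 (-0.10, 0.62) did not pass. Nr1h4, the bile acid receptor FXR, was at 638, 655 and 670.4 CPM in control and 448, 541 and 446 CPM in cadmium samples (-0.45, adjusted p = 0.048, 1 of 23). Nr3c2, the mineralocorticoid receptor, was at 69.8, 75.7 and 80.3 CPM in control and 133, 108 and 96.8 CPM in cadmium samples (0.58, adjusted p = 0.031, 3 of 18). Also in no list, Clip1, a microtubule plus-end linker (-0.65, adjusted p = 0.010, 10 of 16), and Epb41, the membrane skeleton protein 4.1R (-0.61, adjusted p = 0.018, 6 of 21, 13 with the replicate block), fell by sum. In Epb41 the first 3 peaks were at -0.12 to -0.002 while the other 18 lay between -0.26 and -0.87. The 3 annotated starts of Epb41 lie before peaks 1, 3 and 4. These 7 genes, and Zfhx4, were chosen after their values were seen. Their calls were fragile. Smarca4 aside, each of them lost its call without cadmium replicate 3 (adjusted p 0.055 to 0.21). Zfhx4, Nr3c2, Nr1h4 and Smarca2 also lost it without control replicate 1 and cadmium replicate 1, and Epb41 without cadmium replicate 2. Control replicate 2 was needed by Nr1h4, Nr3c2 and Smarca2, and control replicate 3 by Nr1h4, Nr3c2 and Zfhx4. Peak calls moved as well: with 1 library left out, 0 to 7 peaks were called in Baz1b (0 without control or cadmium replicate 3), 0 to 6 in Clip1 (at most 1 except without control replicate 1), 0 to 5 in Epb41 (0 without cadmium replicate 2 or 3), 0 to 3 in Zfhx4, 0 to 2 in Nr3c2 and 0 or 1 in Smarca2 and Nr1h4.

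Rapgef4 encodes EPAC2, a cAMP-activated exchange factor for the GTPase RAP1. Its sums were 468, 405 and 365 CPM in control and 202, 254 and 199 CPM in cadmium samples, a log2 change of -0.92 (SE 0.15, adjusted p = 0.0074). The 1 annotated start of Rapgef4 lies before its peak 1. The first 3 of 17 peaks were low and uncalled, and in cadmium replicate 1 they stood at 0.19, 0.38 and 0.43 CPM, below the other 5 samples. Of the other 14 peaks 11 were called, with the steepest fall at peak 10 (-1.55); 6 were called without control replicate 1, cadmium replicate 1 or cadmium replicate 3, and 7 without control replicate 2. Fam13a, which encodes a protein with a RhoGAP domain, was at 103, 98.7 and 126 CPM in control and 204, 158 and 195 CPM in cadmium samples (0.77, SE 0.15, adjusted p = 0.013; 0.067 without cadmium replicate 3). Its 16 peaks lay between 0.64 and 0.96, and 11 were called, with 0 without cadmium replicate 3, 4 without control replicate 2, 5 without cadmium replicate 1 and 6 without control replicate 1. In the receptor and signalling list none of 3 members passed; Ghr changed by 0.11 (adjusted p = 0.66), with 2 of 49 peaks below 0. Its peak 48, close to the 3′ end, held 369, 415 and 328 CPM in control and 380, 350.0 and 338 CPM in cadmium samples while peaks 1 to 47 held 17.0 to 70.9 CPM in the control means.

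The largest rise by sum in the set belonged to Gm34667, a predicted long noncoding RNA. It was at 123, 84.6 and 82.0 CPM in control and 257, 163 and 240.1 CPM in cadmium samples, a log2 change of 1.19 (SE 0.21, adjusted p = 0.010). Of its 15 peaks, at 0.82 to 1.59, 14 were called, and the call of the sum did not depend on any single library, whereas 5 peaks were called without cadmium replicate 3, 6 without control replicate 3 and 8 without control replicate 2 or cadmium replicate 1. Neb, the giant nebulin of muscle thin filaments, was the lowest gene of the set, at 16.7, 20.0 and 18.3 CPM in control and 33.4, 39.0 and 28.4 CPM in cadmium samples (0.87, SE 0.15, adjusted p = 0.0093). Its 16 peaks were all above 0 and 4 were called, though 0 or 1 with any 1 library left out, and single peaks held 0.35 to 4.02 CPM. The part of the marker shifts given above in these rises was not tested.

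**Figure D5:**
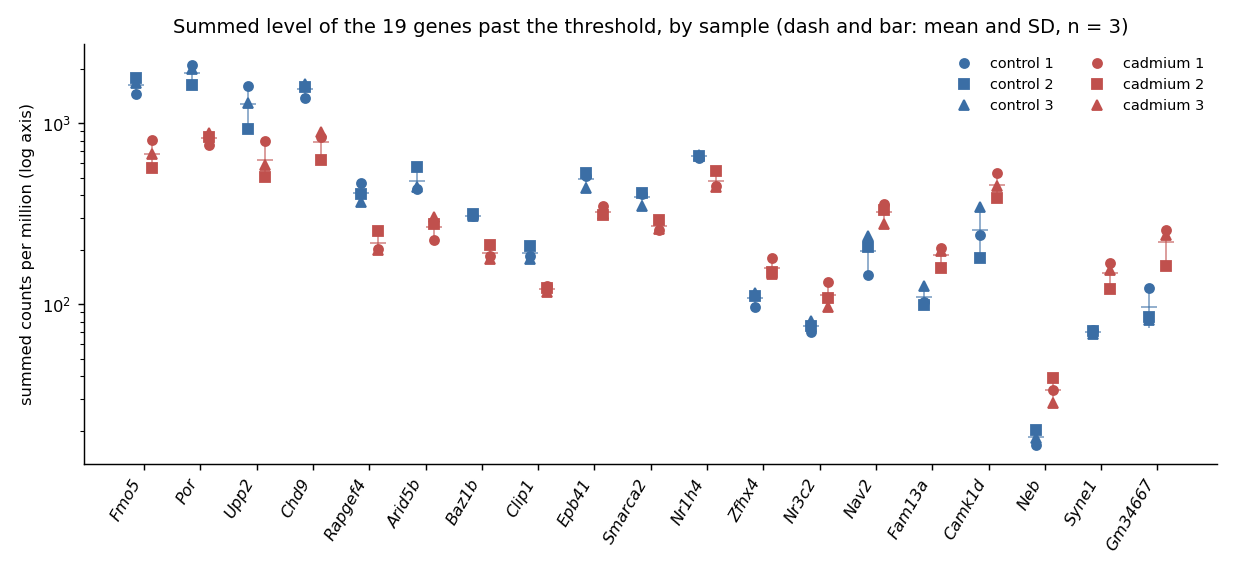
Summed CPM (log axis) of the 19 genes past adjusted p 0.05, for each of 3 control (blue) and 3 cadmium (red) samples; dashes and bars are mean and SD. In all 19 genes the 2 groups do not overlap, from Fmo5 with the largest fall on the left to Gm34667 with the largest rise on the right.

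The genes with the most peaks stayed close to 0 by sum. Changes were -0.02 for Dpyd, -0.05 for Gphn, -0.16 for Adk, 0.04 for Macf1, -0.10 for Syne2 and -0.19 for Zbtb20, with adjusted p from 0.39 to 0.96, and none of their peaks was called. Dpyd was at 3371, 2248 and 2725 CPM in control and 3105, 2443 and 2687 CPM in cadmium samples, so the spread within a group was wider than the difference. In Gphn a single peak, number 40 of 53, held 229, 220.3 and 321 CPM in control and 290.0, 190 and 249 CPM in cadmium samples. Called peaks without a call by sum were found in 5 genes: Dst (2), Dlc1 (8) and Wwc1, Rock2 and Tmf1 (1 each). In Dlc1, a RhoGAP tumour suppressor picked after its values were seen, the 8 calls lay among the 14 low peaks numbered 8 to 21 along the chromosome (1.09 to 3.13 CPM in control means, changes of 0.46 to 1.23), of which 2 to 4 were called with 1 library left out. Its first 7 peaks, at 3.89 to 84.0 CPM, changed by -0.11 to 0.51 with no call. Of the remaining lists, those for ubiquitin (2 members), secreted proteins (1), vesicle traffic (1) and RNA processing (1) had no gene past the threshold, and those for lipid metabolism, DNA repair and noncoding RNAs had no member. In no list were 64 genes, of which 5 rose and 8 fell.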

How the data were processed

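The authors' deposited table lists m6A peaks with coordinates on mm10, gene names, a raw count for each of the 6 pulled-down libraries, and their own log2 fold change, p-value and adjusted p-value. The submitters' processing notes name the read trimmer cutadapt (1.1.8), the aligner STAR (2.7.1a), SAMtools (1.3.1), the peak caller MACS2 (2.1.1) and, as written there, DESeq2 (4.1.0). The sources used here do not say how peaks were called over replicates or whether counting used strand, so overlapping and antisense genes cannot be told apart.

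Counts of all peaks went, as deposited, into the quasi-likelihood F test of edgeR (4.0.16, under R 4.3.3; TMM, filterByExpr with a minimum count of 10 and a total of 15), and p-values were adjusted by Benjamini-Hochberg over the whole table. Counts were also summed over the single-symbol peaks of each gene and tested the same way. The change of a peak against the other peaks of its gene was tested with diffSpliceDGE. Slopes of log2(CPM + 0.5) on relative peak position were tested with limma 3.58.1 for genes with 5 or more peaks. Called means an adjusted p below 0.05. Standard errors were taken from the F statistic. The biological coefficient of variation was 19.4%, and 3 samples a group limit the precision. The tests were also run on simulated counts drawn for each peak on its own, so runs of near-equal neighbours were not simulated. Gene lengths, strands, starts and sequences are from RefSeq tables (GRCm38.p6). Exons, introns and UTRs were not analysed here.

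Members and gene lists were chosen with earlier results of these data known. Genes named by rule were the 8 with most peaks, up to 6 with the largest summed rise and 6 with the largest fall, up to 6 with most called peaks, those with a departing peak or slope, the 3 steepest control profiles in each direction, and the 2 longest genes at 14 peaks; other names are marked as chosen after seeing values. Labels give replicate numbers 1 to 3 as batches 1 to 3 in both groups. Around their group means, samples of the same number correlated at 0.160, 0.232 and 0.196 and the others at -0.190 to 0.017. With 3 samples a group, deviations from a mean depend on each other, so these values cannot settle whether the numbers pair the samples. The main fits did not use the numbers. Alternatives were the replicate block, DESeq2 1.42.0, RLE size factors, no filter, each replicate left out, other pseudocounts and positions, and limma voom.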

Additional observations from a re-analysis of the deposited data

How the results depend on the processing

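Leaving out 1 replicate gave 65 to 134 called member peaks (173 with all samples), 8 to 17 genes by sum (19), 0 to 6 departing peaks (1) and 1 to 3 slopes (2), and fewer samples enter those fits. With the replicate block there were 218 peaks, 21 genes, 5 departing peaks and 3 slopes. DESeq2 called 29 genes and limma voom 2 departing peaks, not the Dst peak; the cause was not tested. Other scalings, filters, pseudocounts and positions, RefSeq-only peaks and 1 peak for each near-equal run gave 167 to 174 peaks, 19 genes, 1 departing peak and 2 or 3 slopes; RefSeq-only and near-equal were chosen after seeing the data. Among the genes and peaks named by rule, the replicate block ended the calls of Nav2 by sum (adjusted p = 0.057), of the departing Dst peak (0.069) and of 2 single peaks of Neb. With it the called peaks also went from 10 to 9 in Clip1, 3 to 2 in Nr3c2 and 2 to 1 in Dst. They rose from 1 to 3 in Tmf1 and from 1 to 2 in Nr1h4 and Wwc1. Rises from 11 were to 15 in Fam13a, 14 in Camk1d and 13 in Rapgef4, and from 8 to 10 in Arid5b and 9 in Dlc1. Chd9 went from 5 to 7, Baz1b from 10 to 11 and Gm34667 from 14 to 15. Some genes that were not called changed sign by sum with 1 replicate left out, where the log2 change ran from -0.34 to 0.037 for Adk, -0.12 to 0.047 for Crp, -0.15 to 0.14 for Dpyd, -0.0052 to 0.20 for Ghr, -0.18 to 0.057 for Gphn, -0.098 to 0.11 for Macf1, -0.090 to 0.064 for Pard3 and -0.19 to 0.087 for Syne2. Of the single values over all alternatives, 684 kept direction and side of the threshold, 92 lost their call, 3 gained one and 12 changed sign. Low peaks limit the reading of single positions, since the lowest value of a member peak in a sample was 8 counts.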
